A study of Mus musculus with 21 samples.

Results

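Chromosome 1 was followed probe by probe in 21 mouse liver tumours. It was chosen by its measured values, since its median log2 ratio over the tumours was the highest of the autosomes. Its members were the array probes whose position lay on chromosome 1 and that were not control spots, 6658 of the 96336 probes of chromosomes 1 to 19 and X. They spanned chr1:3002738-197188537 of the mm9 build with a median spacing of 17.2 kb. Because measured values chose the chromosome, its levels are given as a description without a test, and tests were kept for the comparison of the treatment groups.

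Both groups were C57BL/6 mice, and both had received CD-HFD, a choline-deficient high-fat diet that causes non-alcoholic steatohepatitis (NASH), for 12 months. The methods call the mice male. One group of 12 tumours came from mice that then received anti-PD1, an antibody that blocks the PD1 receptor of T cells, for 8 weeks, and the other group of 9 tumours came from mice on CD-HFD without it. Lesions whose names start with the same number were taken to be of 1 mouse, so each group held 7 mice, and 3 anti-PD1 mice and 2 CD-HFD mice had several lesions. DNA came from fixed, paraffin-embedded liver tumours and was labelled with Cy3, while the reference, a pool that the labels call liver tails, was labelled with Cy5 on all arrays, with no dye swap. A tumour section also holds stromal, immune and liver cells, so a low level can come from a change in few cells as well as from no change, and bulk DNA cannot tell these apart. The arrays lay on 3 slides, and slide 1 carried a probe design that shared 897 chromosome 1 probes with the design of slides 2 and 3. The share of an array's spots, over all chromosomes, that were well above background in the tumour channel ranged from 65.0% in 608 lesion 1 to nearly all, with 82.1% in 1770 lesion 1 and 85.8% in 2064 lesion 1.

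Array comparative genomic hybridization compares how much tumour and reference DNA binds to each probe, so that a gained chromosome gives log2 ratios above those of the rest of the genome. Distal mouse chromosome 1 holds many genes whose human orthologues lie on the long arm of human chromosome 1 (1q), whose gain is among the most frequent changes of human hepatocellular carcinoma. The chromosome also carries genes of T cell control, such as Pdcd1, which encodes PD1, genes of cell death, such as Casp8 and Bcl2, and genes of hepatocyte metabolism, such as Cps1 and Glul. Gain of a whole chromosome raises all of these together, whereas a change point within the chromosome separates them.

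The probe sequences below show what was read along the chromosome. They are probes named for genes spread along the chromosome from Casp8 to Parp1, and none is shown from the part before Casp8. G and C are in capitals because the base composition of probes bore on their ratios. Positions are those of the files (mm9), and the annotation comes from an exact match on the plus strand of GRCm38. The values are log2 ratios over 21 arrays, or over the 13 arrays of slides 2 and 3 for Pdcd1 and Parp1. The Casp8 probe lies in an intron at chr1:58862865-58862921 and had a median of 0.52, and the Pdcd1 probe lies in an intron at chr1:95941021-95941080 and had a median of -0.58. The Bcl2 probe at chr1:108455101-108455160 lies in an intron of Bcl2 and in an exon of an antisense transcript, with a median of 0.58. The Mdm4 probe at chr1:134905729-134905788 and the Parp1 probe at chr1:182515973-182516031 lie in coding exons, with medians of 0.39 and 0.63. The Glul probe lies in an intron at chr1:155752713-155752770 and had a median of -0.061.
Casp8: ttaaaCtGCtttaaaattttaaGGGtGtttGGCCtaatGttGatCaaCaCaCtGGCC
Pdcd1: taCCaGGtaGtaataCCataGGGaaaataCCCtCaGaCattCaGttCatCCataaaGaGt
Bcl2: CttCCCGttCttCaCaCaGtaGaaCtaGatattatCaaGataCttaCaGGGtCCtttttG
Mdm4: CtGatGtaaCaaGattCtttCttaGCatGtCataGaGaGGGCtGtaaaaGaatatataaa
Glul: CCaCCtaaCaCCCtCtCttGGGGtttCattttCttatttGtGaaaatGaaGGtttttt
Parp1: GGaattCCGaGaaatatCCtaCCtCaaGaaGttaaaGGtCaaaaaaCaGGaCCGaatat

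Chromosome 1 lay furthest above the array median in 4 of the 21 tumours, though another autosome was higher still in 608 lesion 6 and 612 lesion 2. The level of chromosome 1 was the mean log2 ratio of tumour over reference, with each array centred on its median. It was 0.46 in 2064 lesion 1 (SE over probes 0.010) and 0.44 in 2088 lesion 1 (SE 0.0084), both CD-HFD tumours. It was 0.35 in 608 lesion 6 (SE 0.0078) and 0.24 in 612 lesion 2 (SE 0.0082), both anti-PD1 tumours. As a ratio to the reference these levels were 1.38, 1.36, 1.27 and 1.18, whereas 1 extra copy in every cell would give a log2 ratio of 0.58. These errors cover the noise between probes of 1 array and not the spread between tumours.

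These 4 tumours were the ones at or above a log2 ratio of 0.2, the level called a gain here, and they came from 4 of the 14 mice, 2 of 12 anti-PD1 tumours and 2 of 9 CD-HFD tumours. The tumour just inside was 612 lesion 2 and the tumour just outside was 1770 lesion 4 of a CD-HFD mouse, at 0.18 (SE 0.0074), a ratio of 1.13. The other 16 tumours lay between 0.0012 in 1770 lesion 1 and 0.13 in 2064 lesion 2. Among the anti-PD1 tumours the lowest, median and highest levels were 0.057, 0.091 and 0.35, and among the CD-HFD tumours they were 0.0012, 0.10 and 0.46, so that the groups overlapped over most of their range.

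The level was above 0 in each of the 21 tumours before a correction for base composition and in 19 after it. This depended on the processing. In the loess-normalized ratios of the authors, 608 lesion 1, 1770 lesion 1 and 2094 lesion 1 lay at -0.025, -0.084 and -0.073. There 1109 and 2094 lesion 2 lay at -0.020 and -0.0099. The correction for base composition fitted, on the other 18 autosomes of each array, the log2 ratio against the share of G and C in the probe and in the surrounding 50 kb. It lowered the median level over tumours from 0.099 to 0.038 and left the same 4 tumours at or above 0.2, at 0.43 in 2064 lesion 1, 0.41 in 2088 lesion 1, 0.32 in 608 lesion 6 and 0.22 in 612 lesion 2. In 1770 lesion 4 it gave 0.14, and in the other 16 tumours -0.012 to 0.067. The levels thus moved with base composition, and its part in what remained was not tested.

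**Figure D1:**
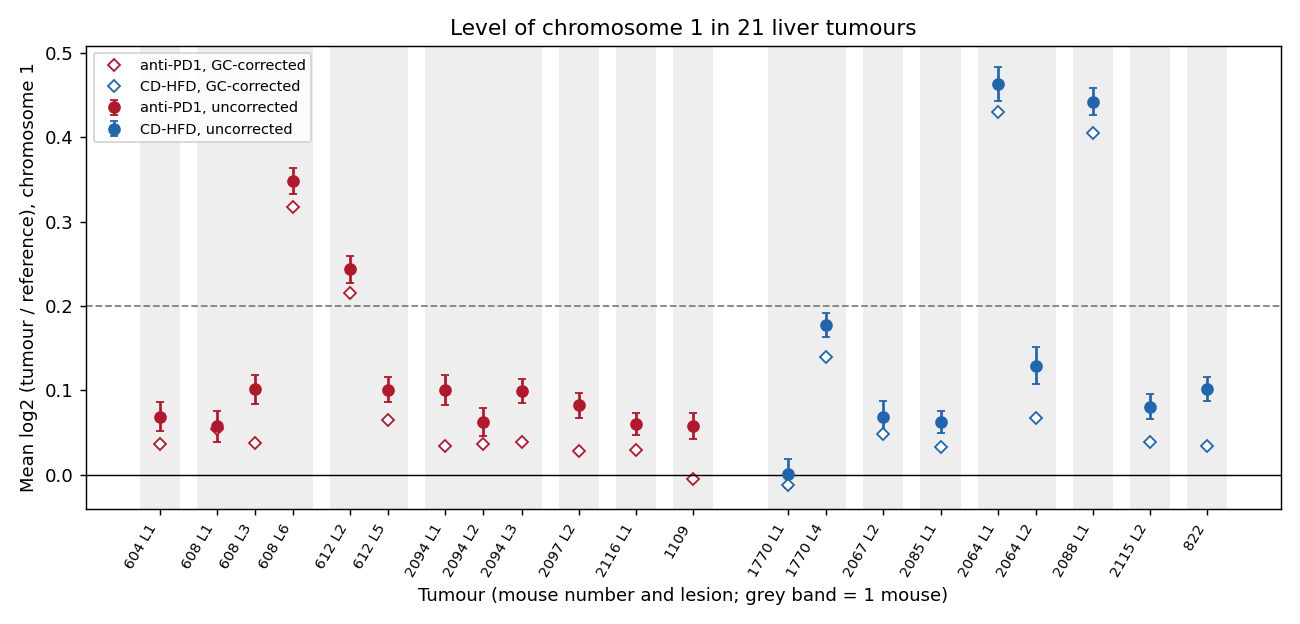
Mean log2 ratio of chromosome 1 in each tumour, with grey bands joining lesions of 1 mouse. Filled circles are uncorrected values with 95% intervals over probes, open diamonds are GC-corrected values, and the dashed line marks 0.2. 4 tumours lie above the line both ways, and 1770 lesion 4 lies below it at 0.18 and 0.14.

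Set against the 18 other autosomes of the same tumour, chromosome 1 ranked first in 3 tumours and among the first 3 in 16 of 21 before correction. After correction it ranked first in 7 tumours and among the first 3 in 14. Some of these first places were by less than the SE over probes. Chromosome 1 and the next autosome were at 0.048 and 0.045 in 2067 lesion 2 and at 0.038 and 0.033 in 2094 lesion 3. They were at 0.039 and 0.035 in 2115 lesion 2 and at 0.0339 and 0.0325 in 822. Before correction the median level over tumours was 0.095 for chromosome 3, near the 0.099 of chromosome 1. The tumours with a gain differed in what else was altered. After GC correction 2088 lesion 1 had no other autosome at or beyond 0.2 in either direction, and its next highest was chromosome 6 at 0.18. Before correction chromosomes 6 and 18 of this tumour were at 0.22 and 0.21, and its X chromosome was at 0.42, and at 0.31 after correction. In 612 lesion 2 chromosome 8, at 0.30, exceeded chromosome 1. In 608 lesion 6 gains of chromosomes 5, 10, 15 and 19, at 0.27, 0.30, 0.40 and 0.29, accompanied losses of chromosomes 9 and 12, both at -0.36. In 2064 lesion 1 chromosomes 10, 15 and 16 reached 0.37, 0.41 and 0.40, and chromosomes 4, 6, 12 and 13 fell to between -0.33 and -0.26.

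**Figure D2:**
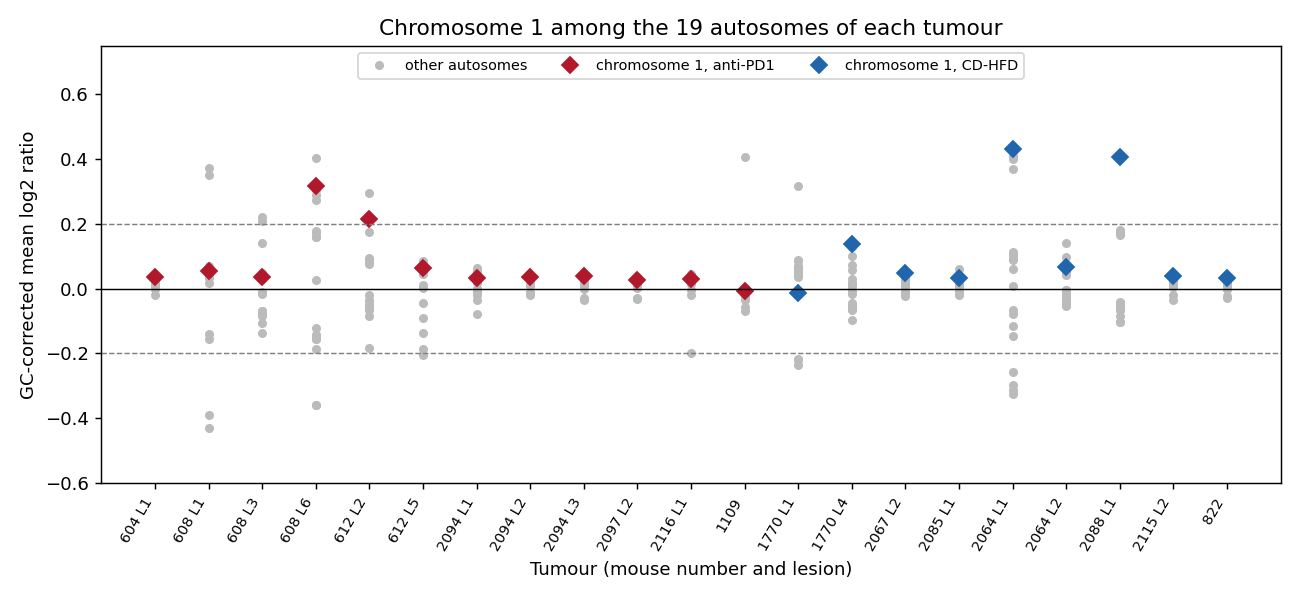
GC-corrected mean log2 ratio of each of the 19 autosomes in each tumour, with chromosome 1 as a coloured diamond, the other autosomes as grey circles and dashed lines at 0.2 and -0.2. Chromosome 1 is the highest autosome in 2064 lesion 1 and 2088 lesion 1 and second in 608 lesion 6 and 612 lesion 2.

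Along the chromosome the level was raised from one end to the other in the 4 tumours. The probes of each tumour were divided into segments of equal mean, and a segment counted as gained at a mean of 0.2 or more. After GC correction chromosome 1 formed a single segment in 20 of 21 tumours, and in the 4 gained tumours that segment, with all 167 windows of 1 Mb, was gained. Windows here take the mean of their segment. By their own corrected values 87.4% of windows reached 0.2 in 2064 lesion 1, 92.2% in 2088 lesion 1, 80.8% in 608 lesion 6 and 53.3% in 612 lesion 2. Before correction the share of windows in gained segments was 100%, 97.0%, 87.4% and 100% in the same order. In blocks of 25 Mb the corrected level ran from 0.33 to 0.48 in 2064 lesion 1, from 0.35 to 0.42 in 2088 lesion 1 and from 0.27 to 0.35 in 608 lesion 6, with 8 of 8 blocks at or above 0.2 in each. In 612 lesion 2 it ran from 0.17 to 0.23, with 5 of 8 blocks at or above 0.2, and in 1770 lesion 4 from 0.10 to 0.17.

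Counted over tumours, 668 of the 3507 pairs of a chromosome 1 window and a tumour, 19.05%, lay in gained segments after correction, where 4.63% of all autosomal pairs did. These pairs are all windows of the 4 gained tumours, so the share restates 4 of 21 tumours, and windows of a tumour are not separate observations. Chromosome 15 also had a level of 0.2 or more in 4 tumours after correction, and in 3 before it. Before correction the counts were 1030 pairs or 29.4%, where 11.4% of all autosomal pairs did. These shares rest on the values that selected the chromosome and are given without a test. Before correction the segments were also more broken, with more than 1 segment in 17 tumours. Among the tumours below a level of 0.2 the uncorrected gained share was highest at 53.9% in 1770 lesion 4, 49.7% in 2094 lesion 1, 43.7% in 2064 lesion 2, 43.1% in 822 and 22.8% in 2094 lesion 3, and after correction no window of these 5 tumours lay in a gained segment.

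**Figure D3:**
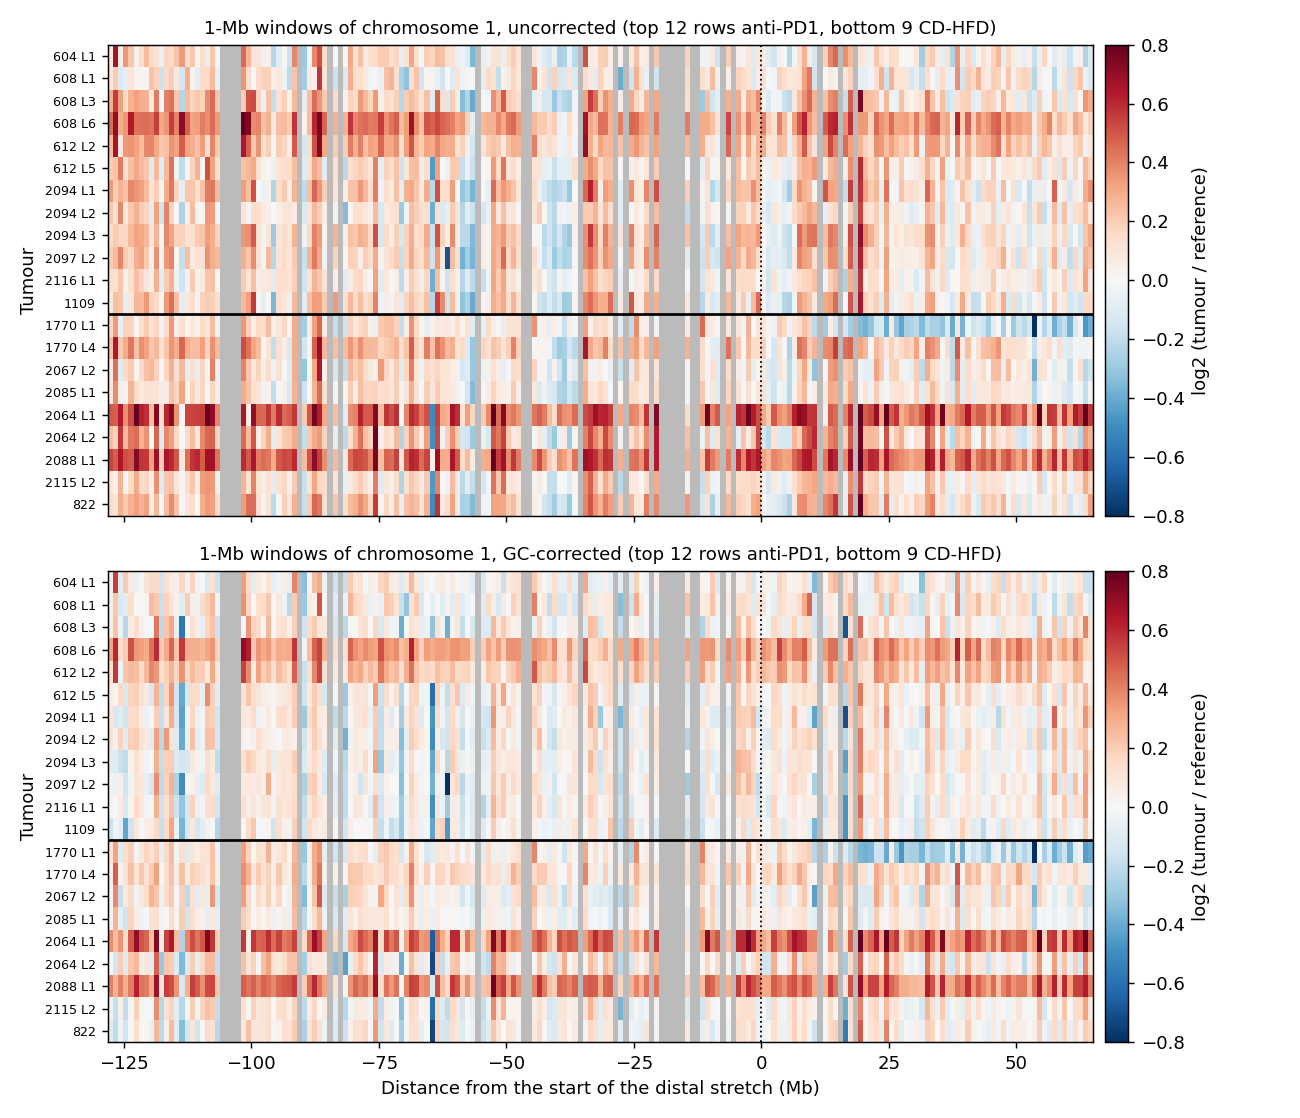
Log2 ratio of the 1-Mb windows of chromosome 1 (columns, by distance from the start of the distal stretch) in each tumour (rows, 12 anti-PD1 above 9 CD-HFD), before (upper panel) and after (lower panel) GC correction, with grey where no window was measured. The 4 gained tumours are red over most windows along the whole chromosome, and 1770 lesion 1 turns mostly blue over its last 50.6 Mb.

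One tumour broke within the chromosome. In 1770 lesion 1, a CD-HFD tumour, the GC-corrected level was 0.077 (SE over 2733 probes 0.010) over the first 143.6 Mb and -0.23 (SE over 1119 probes 0.016) over the last 50.6 Mb, a segment that passed the threshold of -0.2 for a loss. The last probe before the change ended at 146593057 and the first after it started at 146609550, within a group of genes for regulators of G protein signalling: Rgs2, Rgs13 and Rgs1 lay before it, and Rgs18 had probes on both sides. The distal part was lower than the proximal part by 0.31 with and without GC correction, and between the same positions the other 20 tumours differed by -0.039 to 0.026 uncorrected and by -0.0085 to 0.036 corrected. The second lesion of this mouse, 1770 lesion 4, had 0.138 before and 0.143 after the position, without a step. The mean of the whole chromosome in 1770 lesion 1, 0.0012, therefore averaged a slightly raised and a lowered part, and the position was singled out after the values were seen.

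**Figure D4:**
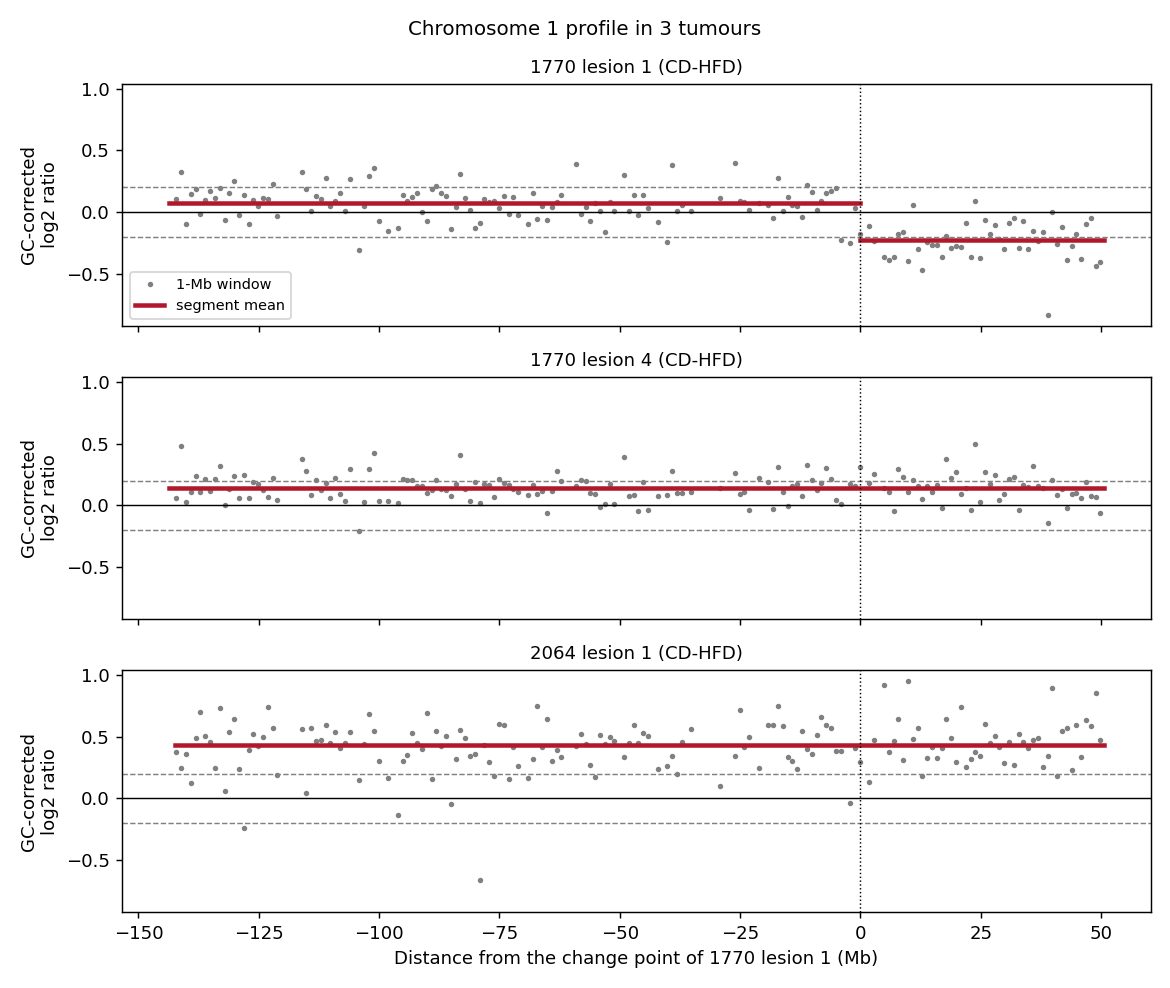
GC-corrected log2 ratio of 1-Mb windows (grey points) and segment means (red lines) along chromosome 1 in 3 CD-HFD tumours, by distance from the change point of 1770 lesion 1, with dashed lines at 0.2 and -0.2. The segment mean of 1770 lesion 1 passes from 0.077 to -0.23, and those of 1770 lesion 4 and 2064 lesion 1 stay at 0.14 and 0.43.

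The distal stretch, where genes with human orthologues on 1q lie, was set against the proximal stretch. It was taken from the window that holds the first C4bp probe, at chr1:132539634-132539693, to the end, 62 windows, with the other 105 windows as proximal. The uncorrected distal minus proximal difference was -0.26 in 1770 lesion 1 and ranged up to 0.028 in 2064 lesion 1. After GC correction it was -0.25 in 1770 lesion 1 and ran from -0.00097 to 0.051 in the other 20 tumours. No tumour raised the distal stretch apart from the proximal one by as much as 0.1, and in the 4 gained tumours both stretches were raised.

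**Figure D5:**
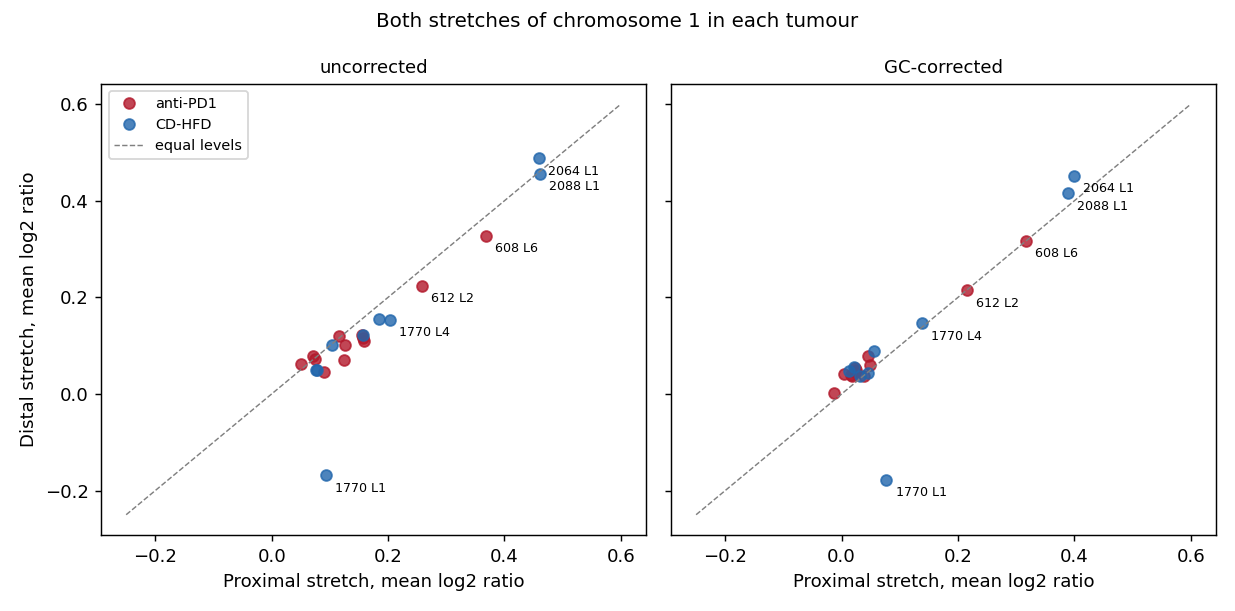
Mean log2 ratio of the distal stretch (vertical) against the proximal stretch (horizontal) in the 21 tumours, uncorrected and GC-corrected, with a dashed line of equal levels. The tumours follow the line and 1770 lesion 1 lies below it by 0.26 uncorrected and 0.25 corrected.

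Below the scale of the chromosome, tumours shared a pattern of high and low windows. The SD over the 167 windows was 0.13 to 0.23 within a tumour (median 0.17), and 0.097 to 0.21 after GC correction. Over the 167 windows the profiles of 2 tumours correlated with a median r of 0.81 in the 106 pairs on the same array design and 0.30 in the 104 pairs on different designs. After correction these medians were 0.80 and 0.16. The median profile over tumours correlated with the mean GC content of the probes of a window at r = -0.43, and at 0.12 after correction. In blocks of 25 Mb the median over tumours was highest in the first block, 0.19, where the 50 kb around the probes had 40.3% GC, and lowest in the fourth, 0.062, where it was 44.5%. After correction the block medians lay between 0.0072 and 0.067. Windows share the probes of a design and the reference pool, so these correlations describe the arrays and tumours together, and how much of the pattern is tumour DNA was not tested.

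The ranges of the windows at the extremes overlapped between the designs to unlike degrees. The highest median, 0.58, was that of chr1:151000001-152000000, which holds Ptgs2, the inducible cyclooxygenase of prostaglandin synthesis, and Pla2g4a, a phospholipase that supplies its substrate. Its values were 0.54 to 1.08 in the 13 tumours of slides 2 and 3 and -0.34 to 0.34 in the 8 tumours of slide 1, with no overlap between the designs. The next were chr1:149000001-150000000, with no named gene, at 0.46, and chr1:45000001-46000000, with the collagen genes Col3a1 and Col5a2 and the iron exporter Slc40a1, at 0.42. The lowest medians were those of chr1:75000001-76000000, with 25 genes such as the intermediate filament gene Des, at -0.30, of chr1:91000001-92000000, with Agap1 and Gbx2, at -0.18, and of chr1:67000001-68000000, with Cps1 and Lancl1, at -0.16. The last of these was -0.51 to 0.042 on slides 2 and 3 and 0.027 to 0.47 on slide 1. The lowest, at 75 Mb, overlapped between designs, at -0.36 to -0.010 on slide 1 and -0.41 to 0.17 on slides 2 and 3, as did the window at 91 Mb, at -0.20 to 0.20 and -0.29 to 0.14. After correction the window at 91 Mb was 0.045 to 0.38 on slide 1 and -0.19 to 0.20 on slides 2 and 3. Both designs hold gained tumours, so overlapping ranges do not show that the designs were alike. After correction the medians of these 6 windows, in the order given, were 0.35, 0.16, 0.14, -0.056, -0.057 and -0.38.

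The segment with the highest uncorrected mean was the whole chromosome in 4 tumours, a proximal part of 67.5 to 69.4 Mb in 8, a distal stretch of 13.8 to 17.2 Mb in 8, and the first 143.6 Mb in 1770 lesion 1. The distal stretches lay within chr1:138121582-155331017, with means of 0.29 to 0.44, and held Ptprc, which encodes the leukocyte protein CD45. The 50 kb around the probes of that interval had 39.8% GC, against 42.3% over the chromosome, and after correction no tumour had a segment of its own there.

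The 7 index genes, placed along the chromosome, give the gain for single gene regions, each region the mean of the probes within 500 kb of the middle of the probes named for the gene. Cops5, a subunit of the COP9 signalosome, was 0.78 in 2064 lesion 1, 0.71 in 2088 lesion 1, 0.38 in 608 lesion 6 and 0.25 in 612 lesion 2, and its lowest, median and highest levels over the 21 tumours were 0.0090, 0.28 and 0.78. Casp8, the initiator caspase of the death receptors, was 0.59, 0.49, 0.50 and 0.41 in the same tumours, with 0.086, 0.22 and 0.59 over the 21. These proximal regions stood at or above 0.2 in 16 and 14 tumours, where the gene regions of the chromosome had a median of 5. After GC correction they did so in 7 and 9, so that in both cases tumours without a gain of the chromosome were among them. Cops5 ran from 0.0090 to 0.38 on slide 1 and from 0.23 to 0.78 on slides 2 and 3. Casp8 also differed by design. After correction its tumours at 0.2 or more without a gain were 604 lesion 1, 608 lesion 1, both lesions of 1770 and 2067 lesion 2, all on slide 1.

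Pdcd1, whose product is the target of the antibody, was 0.37 in 2064 lesion 1, 0.41 in 2088 lesion 1, 0.11 in 608 lesion 6 and -0.082 in 612 lesion 2, with -0.23, -0.062 and 0.41 as its lowest, median and highest. It reached 0.2 in 2 tumours before and 3 after GC correction, which gave 0.39, 0.45, 0.20 and -0.0093 in the same tumours. Bcl2, an inhibitor of apoptosis, was 0.25, 0.35, 0.34 and 0.27 in these 4, and over the 21 tumours it ran from -0.00027 to 0.35 with a median of 0.067. Before correction the 4 gained tumours, and no other, were at or above 0.2 for Bcl2, Mdm4, Glul and Parp1. After it Mdm4 and Glul had 4 tumours there, Bcl2 had 3, with 2064 lesion 1 at 0.198, and Parp1 had 5, with 1770 lesion 4 at 0.32.

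Mdm4, an inhibitor of p53 with its human orthologue on 1q, was 0.35 in 2064 lesion 1, 0.32 in 2088 lesion 1, 0.32 in 608 lesion 6 and 0.23 in 612 lesion 2, with -0.28, -0.012 and 0.35 as its lowest, median and highest. Glul, the glutamine synthetase of hepatocytes around the central vein, was 0.25, 0.28, 0.32 and 0.28, with -0.17, -0.019 and 0.32 over the 21. Parp1, a sensor of DNA breaks, was 0.41, 0.33, 0.33 and 0.24, with -0.16, 0.033 and 0.41 over the 21. The lowest Glul and Parp1 values were those of 1770 lesion 1, -0.17 and -0.16, where both genes lie beyond the change point, and Mdm4, before it, was 0.20 there, just under the threshold.

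Genes were also read in 5 lists, chosen with earlier results of these data known, of which 84 of 88 genes had a measured region. Neighbouring genes share probes, and genes within 1 Mb of each other are not separate measurements. In 2064 lesion 1 and 2088 lesion 1, 84 of 84 list genes were at or above 0.2, in 608 lesion 6 75, in 612 lesion 2 59, in 1770 lesion 4 38 and in 1770 lesion 1 7. Over the 1078 gene regions of the chromosome the counts in these tumours, in the same order, were 1052, 1028, 848, 622, 375 and 100.

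The T cell list had 17 of 18 genes measured, and its median over genes of the level in the median tumour was 0.092, as in all chromosome 1 genes (0.092), where all 22424 gene regions of the genome gave -0.011. Its highest gene was Rgs1, a regulator of G protein signalling of activated lymphocytes, at 0.49, and its lowest was Pdcd1. Ctla4, a second inhibitory receptor, reached 0.2 in 3 tumours. The list of cell division genes and oncogenes with human orthologues on 1q had 22 of 22 measured and a median of 0.11, between Atf3, a stress-induced transcription factor, at -0.090 and Ptgs2 at 0.41. In 1770 lesion 1 it had 0 of 22 genes at or above 0.2 and a median of -0.070.

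The list of liver metabolism and plasma proteins had 22 of 23 measured and a median of 0.12, and its lowest gene was Cyp27a1, a sterol hydroxylase of bile acid synthesis, at -0.12. The cell death and tumour suppressor list had 13 of 14 measured and a median of 0.15, between the phosphatase gene Inpp5d at 0.022 and Bard1, the partner of Brca1, at 0.23. The list of growth and transcription genes of the proximal end had 10 of 11 measured and the highest median, 0.25, between Eya1 at 0.091 and the telomere protein gene Terf1 at 0.31. After GC correction the 5 medians were 0.019, 0.10, 0.085, 0.092 and 0.16, where all chromosome 1 genes gave 0.077 and all gene regions 0.013.

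Lesions of 1 mouse often differed in chromosome 1. In mouse 608 the level was 0.057 in lesion 1, 0.35 in lesion 6 and 0.10 in lesion 3, and after GC correction lesion 6 exceeded lesion 1 in 98.8% of the windows. In mouse 2064 it was 0.46 in lesion 1 and 0.13 in lesion 2, a difference of 0.33, or 0.36 after correction, with lesion 1 higher in 98.8% of windows. In mouse 612 lesion 2 exceeded lesion 5 by 0.14, and in mouse 1770 lesion 4 exceeded lesion 1 by 0.18. The 3 lesions of mouse 2094 lay within 0.038 of each other, and within 0.0040 after correction. Lesions 6 and 1 of mouse 608, those of 1770 and those of 2064 shared a slide, whereas the lesions of 612 lay on different slides and designs. No mouse had a gain in 2 lesions, and these differences between single tumours have no replicate.

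Whether tumours of anti-PD1-treated mice differ in their genome from tumours of mice on CD-HFD alone was the comparison of the series, and on chromosome 1 no difference passed its test. CD-HFD mice averaged a level of 0.163 ± 0.148 and anti-PD1 mice one of 0.10 ± 0.050 (SD over 7 mice each). In limma, with mouse as a random block, the anti-PD1 minus CD-HFD difference was -0.054 (SE 0.051, p = 0.296, adjusted p = 0.877 over 20 chromosomes). The correlation within a mouse that limma estimated was -0.0092, so that lesions of a mouse counted almost as independent. Chromosome 1 had the fourth smallest p of the 20 chromosomes, and no chromosome passed an adjusted p of 0.05. The difference was -0.018 without mouse 2064 and -0.020 without mouse 2088, the 2 CD-HFD mice with a gain. Within slides it was 0.10 on slide 1 and -0.19 on slide 2, each with 4 tumours a group, and -0.021 on slide 3 with 1 CD-HFD tumour, so that its direction was not shared between slides.

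Among single windows limma called 0 of 167 at an adjusted p under 0.05, and 1 had an unadjusted p under 0.05. Over the genome it called 0.0% of 2223 windows, with 20 at an unadjusted p under 0.05. The window differences ran from -0.18 to 0.065 with a median of -0.051, and 145 of 167 were lower in anti-PD1 tumours. Among gene regions limma called 0 of 1078 on chromosome 1, with 4 at an unadjusted p under 0.05, and 0.0% of 22424 over the genome, with 152 at an unadjusted p under 0.05. Of the chromosome 1 regions 1022 were lower in anti-PD1 tumours, with a median difference of -0.058, where 13169 of 22424 were lower over the genome, with a median of -0.011. Windows and gene regions alike carry the difference of the chromosome as a whole, and neighbouring regions also share probes. The counts of lower windows and regions are therefore no separate evidence of that difference.

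The smallest p on the chromosome was that of Rims1, a presynaptic scaffold gene, at a difference of -0.14 (SE 0.057, limma p = 0.017, adjusted p = 0.9999). Its lowest, median and highest levels over the tumours were 0.0090, 0.18 and 0.56, and the means were 0.17 in anti-PD1 tumours and 0.32 in CD-HFD tumours. At the index genes the differences ran from -0.061 at Casp8 to -0.0045 at Pdcd1, with an adjusted p of 0.9999 in limma for each of the 7. In each of the 5 lists 0 genes passed the threshold and 0 had an unadjusted p under 0.05. In the order above, 16 of 17, 18 of 22, 21 of 22, 13 of 13 and 10 of 10 list genes were lower in anti-PD1 tumours, where 1022 of 1078 regions of the chromosome were.

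Variation along the chromosome did not separate the groups either. The distal minus proximal difference averaged -0.027 ± 0.017 (SD, n = 7) in anti-PD1 mice and -0.037 ± 0.055 (SD, n = 7) in CD-HFD mice (p = 0.869, exact permutation test over all divisions of the 14 mice into 7 and 7, two-sided). Without mouse 1770 the anti-PD1 minus CD-HFD difference turned from 0.0096 to -0.010 (p = 0.262, exact permutation test). The gained share of the chromosome averaged 16.9% ± 18.9 in anti-PD1 mice and 34.1% ± 38.7 in CD-HFD mice (SD, n = 7 each, p = 0.329, same exact test), and after GC correction 11.9% ± 20.9 and 21.4% ± 39.3. The SD over windows averaged 0.174 ± 0.024 and 0.176 ± 0.031 (SD over mice, n = 7 each, p = 0.860, same exact test). The spread between mice was large against each of these differences, and a p above the threshold does not show that the groups were alike.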

How the data were processed

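Array comparative genomic hybridization was analysed in 21 tumours of 14 mice. The authors deposited scanner output (Feature Extraction 11.0.1.1) with the intensity of both channels and, per the file headers, processed signals after background subtraction and dye normalization. Its log10 ratio, as deposited, is reference over tumour: the processed signals gave the same value (tolerance 0.001) for at least 99.4% of the spots of an array. The authors also deposited loess-normalized log2 ratios of 11526 probes, 837 of them on chromosome 1. The methods given by the study name no analysis of this assay, and 0 columns of per-sample values were left unused. Depth has no meaning for arrays, and precision is limited by their number.

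Each probe's log2 ratio of tumour over reference came from the processed signals, minus the median of its array. Control spots and outlier flags were dropped, and repeated spots were averaged. Windows of 1 Mb needed 5 probes on each array, and gene regions took probes within 500 kb of the middle of a gene's probes, with at least 5 per array. Of the chromosome 1 probes 3989 were named by current RefSeq symbol, 247 by synonym and 437 by the name in the file, and 1985 had no gene name. Segments came from optimal partitioning by least squares, penalised for each change point by 3 times noise variance times ln(probe number), and held 10 probes or more. Gains needed a mean of 0.2.

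Probe sequences were matched exactly to GRCm38, 99.9% of those of chromosome 1 at a single place. The GC correction was quadratic in probe GC and in local GC (50 kb), fitted on autosomes other than chromosome 1. No coordinates were converted between builds.

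Groups were compared with limma 3.58.1 (R 4.3.3; two-sided, Benjamini-Hochberg over all chromosomes, windows or gene regions, mouse as random block) or by exact permutation of mouse means. The labels count each tumour as a mouse. The permutation p-values measure the spread between the 14 mice read from the sample names. The correlation within a mouse estimated by limma was -0.0092 for chromosomes, 0.0060 for windows and -0.051 for gene regions. The limma p-values therefore measure mainly the spread between the 21 tumours. The scripts ran in Python 3.11.15 with numba 0.67.0, numpy 2.4.6, scipy 1.17.1 and pandas 2.3.3, and their steps were tested on simulated data.

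Chromosome 1, its gene lists and the tests were chosen with earlier results of these data known. Genes named were the 7 index genes, the highest and lowest gene of each list, the gene region with the smallest p, the 3 highest and 3 lowest windows and the highest segment of each tumour. Ctla4, Ptprc and the genes at the change point were named after their values were seen. The probe shown for an index gene was the one nearest the middle of its named probes. Probes in a UTR are not shown, and a list's highest gene and some probes are not reported here. The alternatives were the loess ratios, normexp (offset 50), probes well above background, probes on both designs, other centring, probe medians, other thresholds and windows, a subtracted median profile, tumours as independent, the slide as a block and each mouse left out.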

Additional observations from a re-analysis of the deposited data

Results flagged for a closer look

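In 26 groups of 7 mouse values that were searched for a mouse far from the others at the 95% level, 4 were found, where chance alone gives about 1 in 20. Among CD-HFD mice the distal minus proximal difference of mouse 1770 was -0.157, where the nearest other mouse had -0.035, and after GC correction it was -0.123, where the nearest had -0.0030. Both values hold the step in 1770 lesion 1, and the mean of the mouse includes 1770 lesion 4, which had no step. Among anti-PD1 mice the Cops5 region of mouse 604 was 0.0090, where the nearest had 0.23, and its Pdcd1 region was -0.231, where the nearest had -0.062. Mouse 604 was the single anti-PD1 mouse measured on slide 1 only, and the part of the array design in these values was not tested.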

How the results depend on the processing

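The count of tumours with chromosome 1 at 0.2 or more was 4, and 3 to 5 under 8 alternatives, with 10 at a threshold of 0.1. The group difference of the level, the windows and the gene regions past the threshold and the gained share kept their direction and side of the threshold under all alternatives run, the level between -0.078 and -0.018 with adjusted p of 0.50 to 0.999. The difference at Pdcd1 reversed to 0.024 under normexp. The distal minus proximal group difference, 0.0096, lay between -0.010 and 0.016 with each mouse left out, and it reversed to -0.010 without mouse 1770. The group difference in spread, -0.0027, reversed to 0.012 with the authors' loess ratios, to 0.00040 under normexp and to 0.0033 in windows of 5 Mb, and lay between -0.0098 and 0.0041 with each mouse left out, the cause being not tested. With p of 0.455 to 0.977 it stayed above the threshold. The step in 1770 lesion 1, added after the data were seen, was -0.24 in the loess ratios and -0.14 under normexp, against -0.31. Levels of single tumours moved by more than the noise between probes in 19 of 21 tumours under GC correction, in 18 with the loess ratios, in 15 under normexp, in 12 as probe medians, in 7 with probes on both designs or other centring and in 1 without dim probes, with no gained tumour changing sign. The level of 612 lesion 2 was 0.15 under normexp and 0.33 in the loess ratios, and that of 1770 lesion 4 was 0.22 and that of 608 lesion 6 0.50 in the loess ratios. Signal limits 608 lesion 1 most, with 65.0% of spots well above background. No paired analysis was possible because no mouse gave tumours to both groups and the labels number lesions, not pairs.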
